A study of Mus musculus with 36 samples.

Results

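The interferon-inducible GTPases are described here through 10 mouse genes taken by name: Iigp1, Igtp, Irgm1, Irgm2 and Ifi47 of the immunity-related GTPase (IRG) family, and Gbp2, Gbp3, Gbp5, Gbp6 and Gbp7 of the guanylate-binding protein (GBP) family. A gene was read from a probe set that the platform annotation gives to it alone, as 19938 genes on the array have. Of the 10 genes, 5 have such a probe set, 1 each: Iigp1, Irgm1, Gbp3, Gbp5 and Gbp7. The other 5 lie on 4 probe sets annotated to several genes and are given separately, as signals that belong to no single gene. These carry Irgm2 with Igtp, Ifi47 with Olfr56, Gbp2 with Gbp2b, and Gbp6 with Gbp4, Gbp8, Gbp9, Gbp10 and Gbp11.

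Gene expression was profiled in distal colon RNA from 36 mice, 1 Affymetrix array per mouse. Dextran sulfate sodium (DSS), which injures the colon epithelium, is labelled at 5% for every animal, and the animals fall into 5 groups by what was given intrarectally. Scrambled siRNA went to 7 mice, plain siRNA against Tnf (siTNF) to 6, its form carrying O-methyl nucleotides (siTNF-OMe) to 6, and its form carrying O-methyl-propanediol nucleotides to 8 (named siTNF-OMe-P), while 9 are labelled Control. The design text lists the siRNA groups alone, and what Control received, the siRNA doses, the time of sampling and the strain and age of the mice are not given in the sources used here. Control is therefore used as a name and not as a treatment.

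IRG and GBP proteins are GTPases that cells make in large amounts after interferon, above all interferon gamma. They act inside the cell: they collect on the membranes of vacuoles that hold bacteria or parasites, break or tag those vacuoles, and, in the case of several GBPs, help to start inflammasomes. Within the IRG family, Iigp1 and Ifi47 belong to the effector class that coats vacuoles, and Irgm1, Irgm2 and Igtp to the regulatory class that keeps the effectors off the cell's own membranes. In the gut the families are known from infection and from colitis, where both immune cells and epithelium can make them.

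The bases before the gene start are shown, 250 for each gene but Gbp3, for the 4 members with both a probe set of their own and a RefSeq promoter (GRCm38.p6). Interferon can act through such stretches, and their part in the values below was not tested. Capitals mark every match, on either strand, to the gamma-activated site pattern TTCNNNGAA, which reads the same on both strands, or to the core of the interferon-stimulated response element, GAAANNGAAA. The stretches are, 5′ to 3′ on the gene's strand, chr11:48871421-48871670 (minus strand) for Irgm1, and on the plus strand chr3:142559794-142560015 for Gbp3, chr3:142496684-142496933 for Gbp5 and chr3:142530086-142530335 for Gbp7.
Irgm1: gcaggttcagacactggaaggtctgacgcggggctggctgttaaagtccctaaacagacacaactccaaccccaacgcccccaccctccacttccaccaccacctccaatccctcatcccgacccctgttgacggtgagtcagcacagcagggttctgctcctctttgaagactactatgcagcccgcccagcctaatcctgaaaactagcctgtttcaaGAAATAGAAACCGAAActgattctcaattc
Gbp3: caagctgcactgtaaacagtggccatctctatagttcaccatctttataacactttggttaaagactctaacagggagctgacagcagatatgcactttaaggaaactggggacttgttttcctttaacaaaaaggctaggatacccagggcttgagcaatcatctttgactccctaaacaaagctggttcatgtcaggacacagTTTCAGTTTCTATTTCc
Gbp5: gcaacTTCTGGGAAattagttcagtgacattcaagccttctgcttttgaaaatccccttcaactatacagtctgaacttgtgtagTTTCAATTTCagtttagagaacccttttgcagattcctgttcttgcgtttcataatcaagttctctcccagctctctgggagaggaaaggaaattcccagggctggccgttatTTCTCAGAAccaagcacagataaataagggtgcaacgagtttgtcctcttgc
Gbp7: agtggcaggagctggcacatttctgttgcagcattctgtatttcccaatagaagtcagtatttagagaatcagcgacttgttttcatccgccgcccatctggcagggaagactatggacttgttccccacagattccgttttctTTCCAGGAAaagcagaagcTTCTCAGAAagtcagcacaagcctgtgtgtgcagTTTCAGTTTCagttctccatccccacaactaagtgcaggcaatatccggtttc

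Irgm1 holds 2 matches to the response element core that overlap each other, the first starting 30 bases before the gene start. Gbp3 holds 2 overlapping matches as well, read on the opposite strand, the first starting 17 bases before the gene's outermost annotated start. The start site behind its promoter entry lies inside the gene as annotated, so the last 28 bases of that entry's 250 are not shown, and a second listed start site, farther inside, has no match. Gbp5 and Gbp7 each hold 2 gamma-activated site matches and 1 core match, and in neither stretch do the patterns overlap. In all, 8 of the 10 genes had a promoter entry (Iigp1 and Gbp6 did not). The core was found in 7 of the 8, Ifi47 being the exception, and the gamma-activated site in 4 of the 8, namely Gbp5, Gbp7, Igtp and Irgm2, which hold both patterns. Of all 27025 genes with promoter entries, 8.13% hold the gamma-activated site, 3.46% the core and 0.459% both, counted in the same way over every 250-base stretch of a gene. A match is a string of letters and was not tested for binding.

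On the mouse assembly GRCm38, Iigp1 lies on chromosome 18 from 60373616 to 60392634 and Irgm1 on chromosome 11 from 48865245 to 48871420. Gbp5 (142496934 to 142522344), Gbp7 (142530336 to 142550151) and Gbp3 (142560016 to 142573213) are neighbours on chromosome 3, where Gbp2 (142620663 to 142638008) lies too. Gbp6 is in the second GBP cluster, on chromosome 5 from 105270702 to 105295871. Igtp (58199556 to 58207592), Irgm2 (58214977 to 58222783) and Ifi47 (49076587 to 49096987) are on chromosome 11. The genome build that the probes were designed on is not named in the labels.

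The array values are log2 signals from 4.95 to 14.1 over 28853 probe sets. Depth has no meaning for arrays, and their number limits the precision. The SD of values within an array ran from 1.55 to 1.89 and was under 1.7 in 8 arrays, of which 4 were Control, 1 scrambled, 1 siTNF and 2 siTNF-OMe-P. Tnf itself, the targeted gene, averaged 7.95 in Control, 8.89 in scrambled, 9.1 in siTNF, 8.79 in siTNF-OMe and 8.69 in siTNF-OMe-P. It did not pass between scrambled and any TNF siRNA, at 0.19 ± 0.16 (SE), -0.12 ± 0.16 and -0.23 ± 0.15 log2 (limma adjusted p = 1 for each). Colon epithelial markers were abundant in every array, with a list mean of 11.77 to 12.42 log2. Markers of squamous epithelium, which colon lacks, had a list mean of 7.05 to 7.58 in Control and 7.15 to 7.36 in scrambled, but reached 8.96 in siTNF, 10.45 in siTNF-OMe and 11.06 in siTNF-OMe-P. In bulk tissue, more cells of a type and more RNA per cell cannot be told apart.

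Iigp1, an effector IRG that loads onto parasite vacuoles, showed the widest range. In Control its log2 signal ran from 7.82 over a median of 8.27 to 9.68 (mean 8.35 ± 0.557, SD, n = 9). In scrambled it ran from 9.18 over 10.2 to 12.19 (10.73 ± 1.24, n = 7). It ran from 9.73 over 10.45 to 10.59 in siTNF (10.34 ± 0.324, n = 6). The siTNF-OMe arrays spanned 9.73 to 11.68 with a median of 10.59 (10.56 ± 0.684, n = 6), and the siTNF-OMe-P arrays 8.8 to 11.45 with a median of 10.51 (10.44 ± 0.807, n = 8). The siTNF and siTNF-OMe arrays all lay above all Control arrays, while scrambled replicate 5 and siTNF-OMe-P replicate 2 fell below Control replicate 2, the highest Control array.

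Irgm1, a regulatory IRG that has been tied to autophagy, was the member with the most overlap. Its Control arrays ran from 6.71 over 7.71 to 8.84 log2 (mean 7.6 ± 0.742, SD, n = 9). The scrambled arrays ran from 7.74 over 8.99 to 10.72 (9.28 ± 1.2, n = 7). The siTNF arrays ran from 8.13 over 8.74 to 9.95 (8.93 ± 0.624, n = 6). In siTNF-OMe the range was 8 to 10.41 around a median of 8.89 (8.98 ± 0.787, n = 6), and in siTNF-OMe-P 7.53 to 9.89 around 8.86 (8.87 ± 0.71, n = 8). Each siRNA group overlapped Control. Irgm1 was also the member that followed array SD most closely, with r = 0.624 over 36 arrays, against 0.279 to 0.466 for the other 4 members. This r is a description, and the part of array SD in the group differences was examined by leaving out the narrow arrays, below.

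Among the GBPs, Gbp5, which promotes assembly of the NLRP3 inflammasome, was the one member whose scrambled arrays all cleared Control. Its Control arrays ran from 7 over 7.41 to 7.86 log2 (mean 7.4 ± 0.259, SD, n = 9). Its scrambled arrays ran from 8.02 over 8.49 to 10.58 (9.2 ± 1.11, n = 7). The siTNF arrays ran from 8.43 over 8.82 to 9.13 (8.82 ± 0.279, n = 6) and the siTNF-OMe arrays from 8.38 over 8.87 to 10.06 (8.97 ± 0.6, n = 6), and neither group overlapped Control. In siTNF-OMe-P the range was 7.77 to 9.58 around a median of 8.83 (8.8 ± 0.542, n = 8), and replicate 2 alone fell below the highest Control array.

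Gbp3, a member of the chromosome 3 cluster, ran in Control from 7.67 over 7.91 to 8.39 log2 (mean 7.96 ± 0.24, SD, n = 9). In scrambled it ran from 8.35 over 8.96 to 10.45 (9.4 ± 0.848, n = 7), where replicate 5 was the single array below the highest Control value. In siTNF it ran from 8.63 over 8.81 to 9.73 (8.99 ± 0.43, n = 6), and in siTNF-OMe from 8.78 over 9.05 to 9.94 (9.15 ± 0.424, n = 6). Both groups were free of overlap with Control. In siTNF-OMe-P it ran from 8.06 over 9.12 to 9.75 (9.08 ± 0.514, n = 8), with replicate 2 inside the Control range.

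Gbp7, a GBP linked to oxidative killing in phagocytes, ran in Control from 8.24 over 8.52 to 9.25 log2 (mean 8.54 ± 0.33, SD, n = 9). The scrambled arrays spanned 8.99 to 10.99 with a median of 9.43 (9.92 ± 0.822, n = 7). The siTNF arrays spanned 9.04 to 9.8 with a median of 9.53 (9.49 ± 0.271, n = 6). The siTNF-OMe arrays, from 9.34 over 9.64 to 10.51 (9.73 ± 0.415, n = 6), were the only ones wholly above Control. The siTNF-OMe-P arrays ran from 8.7 over 9.51 to 10.24 (9.51 ± 0.478, n = 8).

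**Figure D1:**
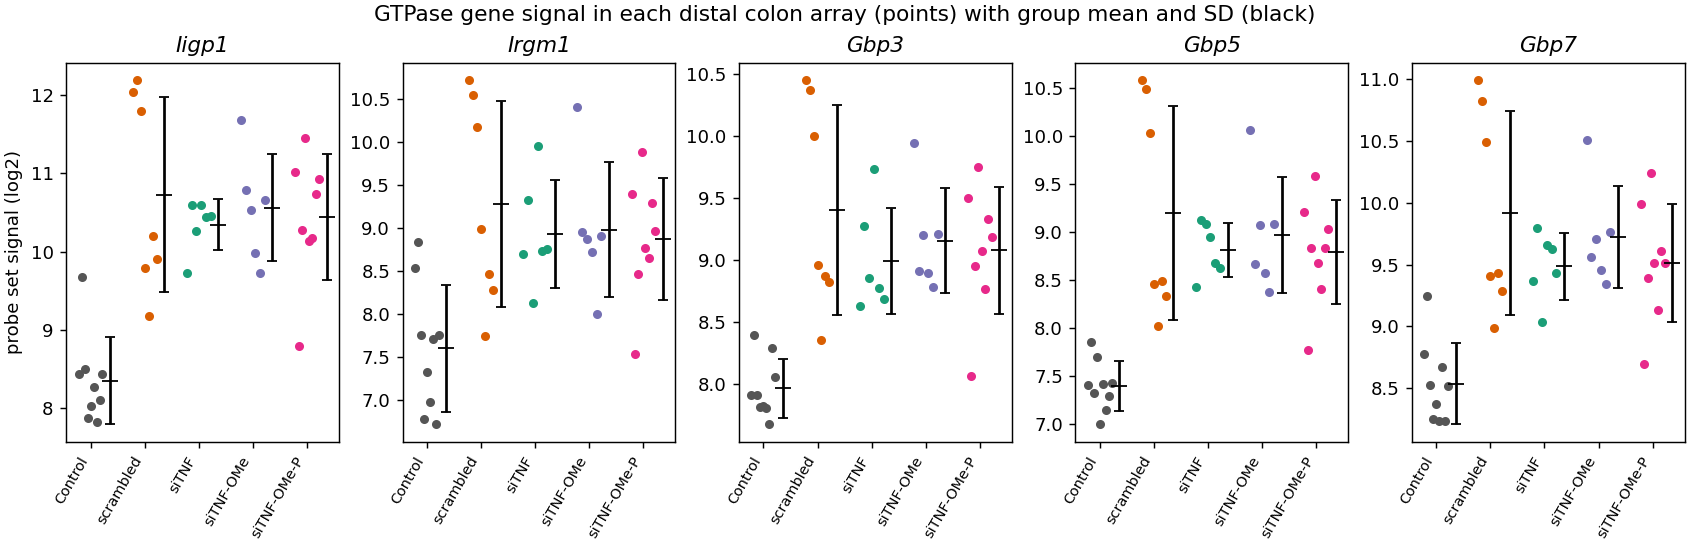
Log2 probe set signal of Iigp1, Irgm1, Gbp3, Gbp5 and Gbp7 in each array, by group, with the group mean and SD in black beside the points. The panels have different vertical ranges; in all 5 panels the Control points lie lowest on average, and the scrambled points split into 3 high arrays and 4 lower ones.

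The scrambled group was not a single cloud. Replicates 1, 2 and 3 lay at 11.8 to 12.19 log2 for Iigp1 and replicates 4 to 7 at 9.18 to 10.2, and the same 3 arrays were the highest for the other 4 members too, at 10.03 to 10.58 against 8.02 to 8.49 for Gbp5 and 10.49 to 10.99 against 8.99 to 9.43 for Gbp7. Array order within the other groups was also shared between members. Control replicate 2 was the highest Control array for 5 of 5 members, siTNF-OMe replicate 1 and siTNF-OMe-P replicate 4 the highest of their groups for 5 of 5, and scrambled replicate 5, siTNF-OMe replicate 5 and siTNF-OMe-P replicate 2 the lowest for 5 of 5. Scrambled replicate 5 and siTNF-OMe-P replicate 2 each had an array SD of 1.69, among the 8 narrow arrays.

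The first question is how an siRNA-dosed colon differs from Control, and all 5 members rose in all 4 such comparisons. What Control received is not known, so a rise over Control cannot be assigned to the siRNA. Colon length set the animals apart, at 7.2 to 8.1 in Control and 5.2 to 7.1 in the siRNA-dosed animals, in the unit of the labels. Its part in the rises was not tested. In scrambled over Control, Iigp1 rose by 2.43 ± 0.38 log2 (SE), or 5.39-fold (limma adjusted p = 2e-05, adjusted over all probe sets, as everywhere here), with 7 of 7 scrambled arrays above the Control mean. Gbp5 rose by 1.85 ± 0.29 (3.61-fold, limma adjusted p = 2.17e-05), Irgm1 by 1.76 ± 0.37 (3.4-fold, 0.0011), Gbp3 by 1.48 ± 0.25 (2.79-fold, 7.13e-05) and Gbp7 by 1.42 ± 0.23 (2.68-fold, 3.32e-05). The background is that 7.27% of all 28853 probe sets rose in this comparison. The median of the members was 1.76 against -0.027 over all probe sets. For 1 member, Gbp5, scrambled and Control were free of overlap, as for 2.68% of all probe sets.

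With siTNF the members rose over Control by 0.9 (Gbp7) to 1.96 (Iigp1) log2, with limma adjusted p from 0.000534 to 0.0242, where 9.09% of all probe sets rose. With siTNF-OMe they rose by 1.2 (Gbp3 and Gbp7) to 2.22 (Iigp1), adjusted p 8.43e-05 to 0.0104, against a background of 9.01%. With siTNF-OMe-P they rose by 0.95 (Gbp7) to 2.06 (Iigp1), adjusted p 7.4e-05 to 0.0153, against 9.35%. Member medians were 1.27, 1.41 and 1.22, with medians over all probe sets of -0.044, -0.05 and -0.026. Arrays did not overlap for 3 members with siTNF, 4 with siTNF-OMe and 0 with siTNF-OMe-P, where the shares over all probe sets were 3.24%, 6.36% and 3.51%. These comparisons share the Control arrays, so their agreement is not independent. Iigp1 had the highest difference and Gbp7 or Gbp3 the lowest in each of them.

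Single arrays and batches bear on some of these calls. Irgm1 in siTNF over Control, 1.27 ± 0.39 log2 (adjusted p = 0.0242), lost its call without siTNF replicate 4 (1.02, limma adjusted p = 0.112), replicate 5 (1.21, 0.0622) or replicate 6 (1.2, 0.0583). Without the 8 narrow arrays it was 0.99 (limma adjusted p = 0.0628), while 19 of the 20 member calls over Control stayed. That setting called 14417 (scrambled), 6021 (siTNF), 15575 (siTNF-OMe) and 13845 (siTNF-OMe-P) of 28853 probe sets in either direction. With all arrays the counts were 3384, 3982, 4275 and 4596, so kept calls say less there. With arrays weighted by how well they follow the model, Irgm1 lay at 0.52 in siTNF (limma adjusted p = 0.26) and 0.72 in siTNF-OMe-P (0.0571), and Gbp7 at 0.6 in siTNF (0.0574). Irgm1 in siTNF also missed the threshold when p-values were adjusted over all 10 comparisons together (limma adjusted p = 0.0582). Within hybridization batch 1 the 5 members differed from Control by 1.68 to 3.02 log2 in scrambled, 0.76 to 2.02 in siTNF, 1.22 to 2.62 in siTNF-OMe and 1.08 to 2.56 in siTNF-OMe-P. Within batch 2 the ranges were 1.05 to 1.9, 1.09 to 2.05, 0.95 to 1.84 and 0.85 to 1.77. In these smaller fits, limma called 4, 0, 2 and 2 of the 5 members in batch 1, where 3.57%, 2.73%, 4.27% and 4.89% of all probe sets were called in either direction. In batch 2 it called 3, 4, 3 and 2 members, against 3.63%, 5.49%, 7.29% and 7.68%.

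By amplification batch, members stayed above Control with 1 exception, but with unequal size. Within amplification batch 1 the members lay 1.88 to 2.96 log2 above Control in scrambled, 0.32 to 1.14 in siTNF and 1.42 to 2.6 in siTNF-OMe, and at -0.22 to 0.86 in siTNF-OMe-P, Irgm1 being the one below 0. There limma called 1, 0, 1 and 0 of the 5 members, where it called 4.09%, 6.78%, 8.00% and 30.5% of all probe sets, so the siTNF-OMe-P comparison had many calls and none among the members. Within batch 2 the ranges were 1.9 to 3.13, 1 to 2.26, 1.16 to 2.31 and 1.23 to 2.41, with 5, 4, 5 and 5 members called against 11.9%, 13.1%, 7.58% and 10.5% of all probe sets. Within batch 3 they were 0.68 to 1.64, 0.77 to 2.41, 1.04 to 2.16 and 1.09 to 2.8, with 1, 2, 2 and 2 members called against 0.187%, 0.381%, 0.700% and 0.201%. Batch 1 holds 1 scrambled and 1 siTNF-OMe array, each assumed to vary like the other groups. Its 2 siTNF-OMe-P arrays include replicate 2, the lowest of that group, and its 2 Control arrays include replicate 2, the highest Control array.

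**Figure D2:**
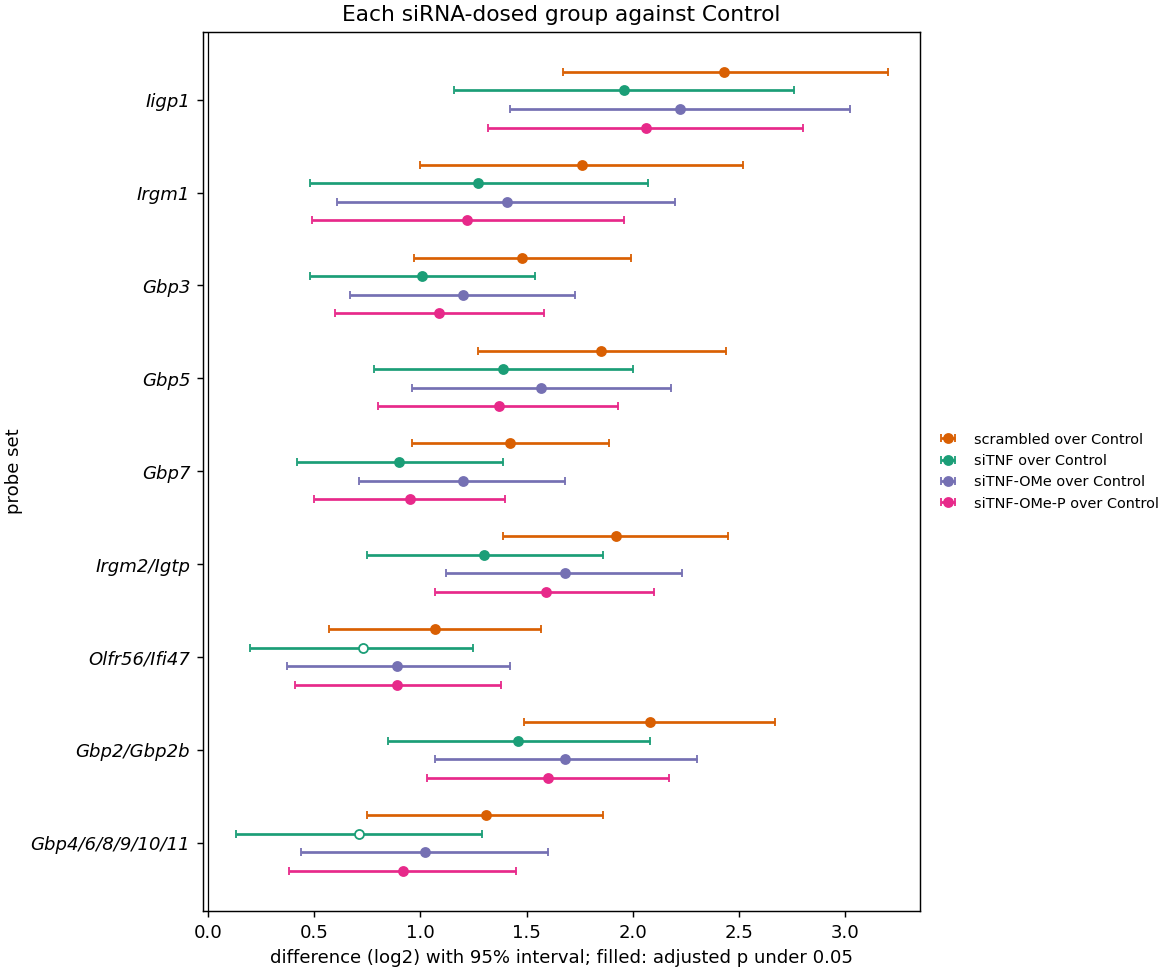
Log2 difference from Control with its 95% interval for the 5 members and the 4 shared probe sets, in each siRNA-dosed group; filled points have a limma adjusted p under 0.05. All intervals lie above 0, and the open points are the probe sets of Olfr56 and Ifi47 and of 6 GBP genes in siTNF.

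The shared probe sets add the remaining 5 genes without telling their partners apart. The signal of Irgm2 and Igtp averaged 9.36 ± 0.418 log2 in Control (SD, n = 9) and 11.23 ± 0.956 in scrambled (n = 7), and rose by 1.92 ± 0.26 (SE, limma adjusted p = 2.77e-06). That of Gbp2 and Gbp2b averaged 9.61 ± 0.518 and 11.64 ± 0.95 and rose by 2.08 ± 0.29 (4.2e-06). Gbp2b has a probe set of its own as well, at 7 in Control and 7.28 in scrambled, where it did not pass (0.27 ± 0.13, 0.218). The signal of Olfr56 and Ifi47 rose by 1.07 ± 0.25 (limma adjusted p = 0.00262) and that of the 6 chromosome 5 GBPs by 1.31 ± 0.27 (0.000931).

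In the other groups the probe set of Irgm2 and Igtp rose over Control by 1.3 (siTNF), 1.68 (siTNF-OMe) and 1.59 (siTNF-OMe-P) log2, and that of Gbp2 and Gbp2b by 1.46, 1.68 and 1.6. With siTNF the other 2 did not pass, at 0.73 ± 0.26 for Olfr56 and Ifi47 (limma adjusted p = 0.0566) and 0.71 ± 0.28 for the 6 GBPs (0.1). Both passed without the 8 narrow arrays, at 1.13 and 1.02 (limma adjusted p = 0.00194 and 0.0225), and in a fit of siTNF and Control alone, at 0.78 and 0.77 (0.0128 and 0.00549). Those settings called 6021 and 1321 of 28853 probe sets in siTNF over Control, in either direction, against 3982 as first fitted. The probe set of Olfr56 and Ifi47 also passed with array weights (0.85, limma adjusted p = 0.00713), with array SD as a covariate (0.79, 0.0235) and with dim probe sets left out (0.73, 0.0378). There 7924 and 7594 of 28853, and 3774 of the 17312 kept, were called. That probe set passed as well without Control replicate 6 (0.78, limma adjusted p = 0.0466), Control replicate 8 (0.84, 0.0196) or siTNF replicate 1 (0.81, 0.0447). With siTNF-OMe they rose by 0.89 and 1.02, and both lost the call without siTNF-OMe replicate 1 (0.73 and 0.81, limma adjusted p = 0.0696 and 0.0627). With siTNF-OMe-P they rose by 0.89 and 0.92. How far probes of these close paralogs pick up each other's RNA was not tested.

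The second question is whether an siRNA against Tnf, or its chemical modification, changed these genes relative to a scrambled siRNA, and no member passed in any of the 6 comparisons among siRNA-dosed groups. In siTNF over scrambled the members lay at -0.46 to -0.52 log2. In siTNF-OMe over scrambled they lay at -0.21 to -0.36, and in siTNF-OMe-P over scrambled at -0.37 to -0.54. These directions did not hold in every batch or without every array. Within amplification batch 3 all 5 members lay above scrambled, by 0.09 to 0.77 in siTNF, 0.32 to 0.52 in siTNF-OMe and 0.33 to 1.16 in siTNF-OMe-P. That batch holds scrambled replicates 5 to 7, none of the 3 high scrambled arrays, and 2 arrays of each TNF siRNA group. Within hybridization batch 2 they lay at -0.06 to 0.33, -0.23 to 0.05 and -0.34 to -0.13, and within hybridization batch 1 at -1.15 to -0.92, -0.66 to -0.4 and -0.74 to -0.46. Without scrambled replicate 1 the values against scrambled were -0.37 to -0.23, -0.19 to -0.02 and -0.37 to -0.17, and without scrambled replicate 2 they were -0.37 to -0.23, -0.13 to 0.05 and -0.33 to -0.13. Without siTNF-OMe-P replicate 2 the last range was -0.32 to -0.1.

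Mean levels were highest in scrambled and second highest in siTNF-OMe for all 5 members, while siTNF and siTNF-OMe-P changed places between members. None of these neighbouring groups differed beyond their spread.

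The intervals show what sizes remain possible. For Gbp7 in siTNF over scrambled, the difference was -0.52 ± 0.25 log2 (SE, 95% interval -1.04 to 0, unadjusted p = 0.0484, limma adjusted p = 1), with 0 of 6 siTNF arrays above the scrambled mean. This was the one member value of the 30 with an unadjusted p under 0.05. For Iigp1 the intervals against scrambled were -1.32 to 0.38 (siTNF), -1.05 to 0.63 (siTNF-OMe) and -1.16 to 0.42 (siTNF-OMe-P). For Gbp5 they were -1.11 to 0.19, -0.93 to 0.36 and -1.09 to 0.12. For Irgm1 they were -1.34 to 0.35, -1.19 to 0.48 and -1.32 to 0.25, and for Gbp3 -1.03 to 0.1, -0.84 to 0.28 and -0.92 to 0.14. A fall of up to 1 log2, or 2-fold, thus lies inside most of these intervals.

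Among the TNF siRNAs themselves, siTNF-OMe exceeded siTNF by 0.14 to 0.29 log2 over the members. The difference of siTNF-OMe-P from siTNF was -0.05 to 0.1, and that from siTNF-OMe -0.25 to -0.11. The widest intervals here were those of Iigp1 and Irgm1, -0.62 to 1.14 and -0.74 to 1.01 for siTNF-OMe over siTNF. The narrowest were those of Gbp7, -0.24 to 0.83, -0.45 to 0.55 and -0.75 to 0.25, the comparisons in the order just given. Over all probe sets, limma called 0 (0%) in each of the 6 comparisons among siRNA-dosed groups, with 74 to 1002 of 28853 at an unadjusted p under 0.05. The absence of member calls is thus shared with the whole array. The squamous marker list, whose mean differs between these groups as given above, had 0 of 10 genes called among siRNA groups, and its part in the member values was not tested.

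**Figure D3:**
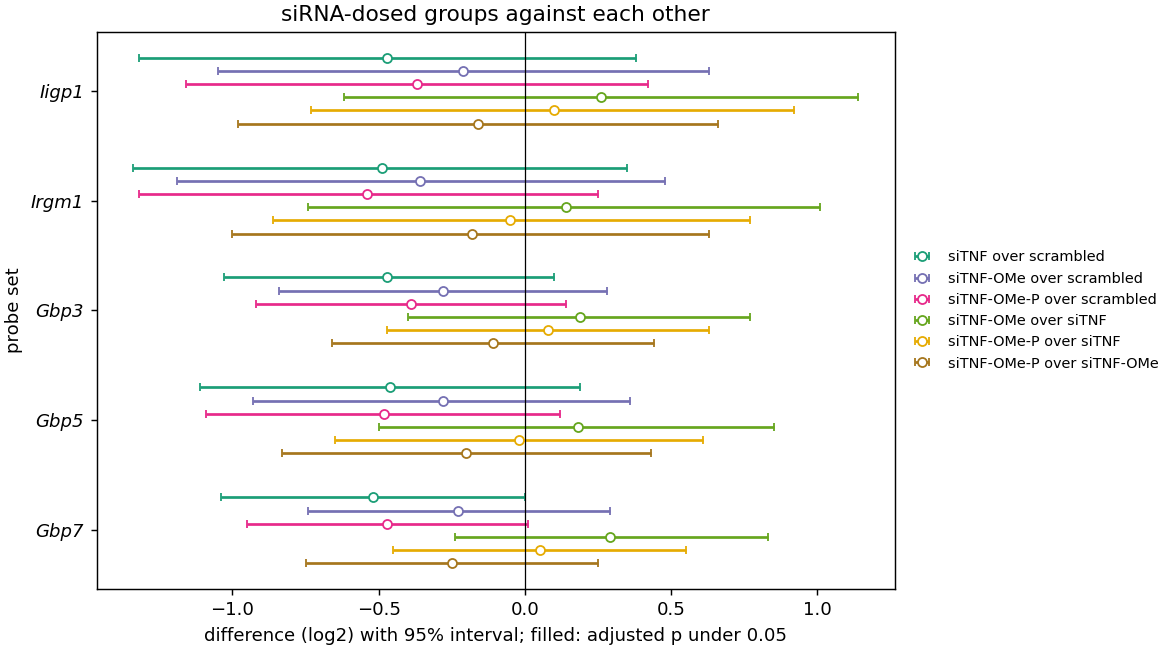
Log2 difference with its 95% interval for each of the 5 members in the 6 comparisons among siRNA-dosed groups; open points did not pass. The intervals include 0 except that of Gbp7 in siTNF over scrambled, whose upper limit lies just below 0 and rounds to it. The values against scrambled all lie below 0.

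The labels give each animal's myeloperoxidase (MPO) activity, an enzyme activity of neutrophils and a common measure of colon inflammation, in units of peroxide breakdown per mg. It ran from 0.009 to 0.088 U per mg in Control and from 0.031 to 1.35 in the 27 siRNA-dosed animals (median 0.391). Within the siRNA-dosed animals, members were higher where MPO was higher. Gbp5 had r = 0.733 and rho = 0.64 (two-sided permutation p = 2e-05 and 0.00046, n = 27), and Gbp7 r = 0.662 and rho = 0.474 (permutation p = 0.0003 and 0.0132). For Iigp1 r was 0.641 and rho 0.592 (permutation p = 0.0003 and 0.00154), for Gbp3 0.629 and 0.532 (0.00059 and 0.00518), and for Irgm1 0.554 and 0.402 (0.00264 and 0.0382). With the shared probe sets and Control, 36 such relations were computed.

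Fitted with group and batches in limma, the slopes were 1.87 ± 0.47 log2 per U per mg for Iigp1 (SE, n = 27), 1.6 ± 0.35 for Gbp5, 1.37 ± 0.52 for Irgm1, 1.13 ± 0.34 for Gbp3 and 0.96 ± 0.32 for Gbp7. Unadjusted p values were 0.000639, 0.000149, 0.0145, 0.00292 and 0.00651. After adjustment over all probe sets 0 members passed, at limma adjusted p = 0.194, 0.134, 0.674, 0.382 and 0.499. Here limma called 0 (0%) of 28853 probe sets, with 1481 (5.13%) at an unadjusted p under 0.05. Without siTNF replicate 3, whose array SD was 1.69, Iigp1 and Gbp5 passed (2.17 and 1.75, limma adjusted p = 0.0415 and 0.0361). That was the 1 fit of 27 with an array left out in which any member passed. With array SD as a covariate Gbp5 passed (1.6, limma adjusted p = 0.041). How many of all probe sets passed in these settings is not given here, so the calls cannot be set against a background.

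The relation rests in part on the animals with the highest MPO. Scrambled replicate 2 (1.35 U per mg) and siTNF-OMe replicate 1 (1.157) lie farthest from the median, and without them r was 0.582 for Gbp5, 0.482 for Gbp7, 0.471 for Iigp1, 0.452 for Gbp3 and 0.333 for Irgm1 (n = 25). Within hybridization batch 1, r was 0.78 to 0.897 over the 5 members (n = 12), and within batch 2 0.0842 to 0.326 (n = 15), so the pooled relation was weak within the second batch. MPO spanned 0.082 to 1.35 in the first batch and 0.031 to 0.932 in the second. A test of the difference itself, chosen after these values were seen, gave slopes of 1.11 to 2.17 in batch 1 and 0.61 to 1.22 in batch 2. The difference between the batches did not pass for any member (-1.02 to -0.5, unadjusted p = 0.329 to 0.499, limma adjusted p = 1).

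By amplification batch, r was 0.815 to 0.853 (n = 6), 0.41 to 0.722 (n = 12) and 0.135 to 0.474 (n = 9). By group, r was 0.829 to 0.87 in scrambled (n = 7) and 0.83 to 0.905 in siTNF-OMe (n = 6), the groups that hold the 3 animals above 1 U per mg. It was 0.107 to 0.318 in siTNF-OMe-P (n = 8). In siTNF (n = 6) it was 0.732 for Gbp5, 0.0843 for Gbp3, 0.0106 for Iigp1, -0.384 for Irgm1 and -0.453 for Gbp7. In Control, where MPO was low throughout, r ran from -0.458 to 0.213 (exact permutation p = 0.201 to 0.767, n = 9), and without Control replicates 7 and 4, which lie farthest from the median, from 0.0734 to 0.821. The arrays with the highest member values were not always those of highest MPO: siTNF-OMe-P replicate 4 was the highest of its group in 5 of 5 members at 0.391 U per mg, and replicate 2 the lowest at 0.423.

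**Figure D4:**
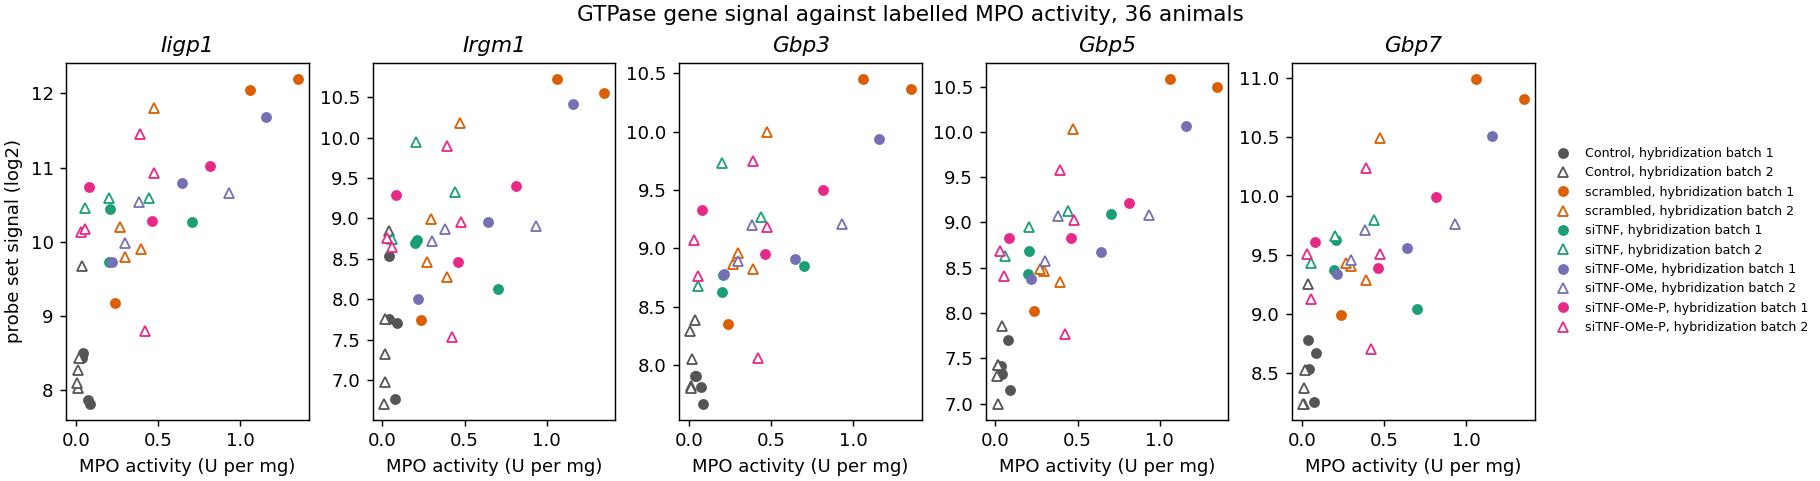
Log2 probe set signal of each member against labelled MPO activity (U per mg) in 36 animals; colours are groups, filled circles hybridization batch 1 and open triangles batch 2. Control animals cluster at or below 0.088 U per mg, and the 3 animals above 1 U per mg, all in batch 1, have high signals in every panel.

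The members varied together. Over the 36 arrays, r between pairs of members was 0.89 to 0.966 (median 0.954). With group and batch means removed it was 0.791 to 0.933 (median 0.9075), so the arrays shared an order within groups as well. These are descriptions, since all points share the same arrays. Of the other genes with a probe set of their own, those with the highest mean r to the 5 members were Tap1 (0.937), a peptide transporter of antigen presentation, Ube2l6 (0.934) and Herc6 (0.926), both enzymes of ISG15 conjugation, Ifit2 (0.928), an interferon-induced antiviral gene, and Gm12250 (0.922), which encodes the IRG protein Irgb10. With group and batch means removed the closest were Gbp4 (0.891), Ube2l6 (0.862), Tap1 (0.861), Ifit2 (0.858) and Herc6 (0.848).

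Other genes of these families moved the same way in scrambled over Control: of 10 interferon-inducible GTPases outside the 10 members that have a probe set of their own, 7 rose and 0 fell, with a median of 0.62 log2. The highest were Gm12250 (1.81 ± 0.32, SE, limma adjusted p = 0.000146) and Gbp4 (1.48 ± 0.32, 0.0013). The lowest that passed were Gbp11 (0.33 ± 0.098, 0.0233) and Mx1 (0.41 ± 0.12, 0.0224), a dynamin-like antiviral GTPase. Of the same 10, 2 rose with siTNF, 5 with siTNF-OMe and 4 with siTNF-OMe-P over Control, with medians of 0.38, 0.44 and 0.38. Gbp4, the closest gene within groups, passed with siTNF-OMe (1 ± 0.33, 0.0362) and not with siTNF (0.69 ± 0.33, 0.202) or siTNF-OMe-P (0.86 ± 0.31, 0.0508).

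The probe set of Ifng, the interferon gamma gene, did not pass, and it read low. In Control it ran from 6.73 to 7.65 log2, near the squamous marker list mean of 7.05 to 7.58 there. Signal over background is not given, and whether a change in Ifng RNA could be seen at that level was not tested. Ifng averaged 7.12 ± 0.303 log2 in Control (SD, n = 9), 7.25 ± 0.186 in scrambled (n = 7), 7 ± 0.148 in siTNF (n = 6), 7.12 ± 0.135 in siTNF-OMe (n = 6) and 7.04 ± 0.204 in siTNF-OMe-P (n = 8). Its difference in scrambled over Control was 0.13 ± 0.11 (SE, 95% interval -0.1 to 0.35, limma adjusted p = 0.614). Irf1, a transcription factor induced by interferon, rose in scrambled (0.97 ± 0.2, limma adjusted p = 0.00106) and in siTNF-OMe (0.67 ± 0.21, 0.0282), and did not pass in siTNF (0.6 ± 0.21, 0.0568) or siTNF-OMe-P (0.53 ± 0.2, 0.0665).

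Of 11 measured genes of interferon gamma signalling, 3 rose and 0 fell in scrambled over Control, with a median of 0.19. Beside Irf1 these were Irf8 (1 ± 0.19), a myeloid transcription factor, and the kinase Jak1 (0.48 ± 0.13). Of 9 genes of type I interferon signalling, 5 rose and 0 fell, with a median of 0.81. Irf7 (1.33 ± 0.2, limma adjusted p = 1.47e-05), which drives interferon alpha genes, and the receptor chain Ifnar2 (1.01 ± 0.19, 0.000348) were highest, and Irf9 (0.81 ± 0.13, 5.08e-05), a transcription factor of the type I response, was the lowest that passed, after the ISG15 protease Usp18 (0.98 ± 0.21, 0.00151). In the other groups, 2 of 11 (siTNF), 3 of 11 (siTNF-OMe) and 2 of 11 (siTNF-OMe-P) gamma signalling genes rose, and 6 of 9 type I genes in each.

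Genes that work with these GTPases at vacuoles and inflammasomes were called in part: 5 of 16 rose and 0 fell in scrambled over Control, with a median of 0.25, and 6 of 16 rose with each TNF siRNA. Casp4 (1.14 ± 0.19, limma adjusted p = 5.26e-05), which encodes the sensor of cytosolic lipopolysaccharide, and Gsdmd (0.88 ± 0.14, 2.24e-05), the pore-forming substrate of inflammatory caspases, were highest. The ubiquitin-like genes Map1lc3a (0.33 ± 0.07) and Gabarap (0.35 ± 0.076), whose lipid-linked products steer IRG proteins to vacuoles, were the lowest that passed. Neither list was compared with the members by a test.

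Markers of several cell types rose with the members over Control, while few T and NK cell or colon epithelial markers did. As background, 7.27% of all probe sets rose over Control in scrambled, 9.09% in siTNF, 9.01% in siTNF-OMe and 9.35% in siTNF-OMe-P. All 9 measured macrophage markers rose in scrambled (median 1 log2), among them Cd68 (1.87 ± 0.12), C1qa (1.49 ± 0.19), Cd14 (0.81 ± 0.26) and Itgam (0.49 ± 0.14), and 9, 9 and 8 of 9 rose with siTNF, siTNF-OMe and siTNF-OMe-P. The macrophage list mean was 8.6 to 9.47 in Control arrays and 9.91 to 10.78 in the siRNA-dosed arrays, with no overlap. Of 13 T and NK cell markers, 2 rose in scrambled, Cd4 (0.92 ± 0.1) and Nkg7 (0.4 ± 0.12), and 1 in each other group, with list means of 7.25 to 7.88 in Control and 7.4 to 7.85 in the siRNA-dosed arrays. Of 8 neutrophil markers 3 rose in scrambled and 4 in each other group, with list means of 7.35 to 8.03 and 7.97 to 10.45. Those in scrambled were S100a8 (2.04 ± 0.45), S100a9 (1.78 ± 0.39) and Ly6g (0.82 ± 0.094). The Ly6g probe set already read 12.07 log2 in Control, against 6.84 for S100a8. The rest of the list lay at 0.03 to 0.46 in scrambled and did not pass.

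Of 7 endothelial markers 4 rose in scrambled: Cdh5 (0.79 ± 0.15), Tek (0.72 ± 0.11), Pecam1 (0.67 ± 0.091) and Tie1 (0.51 ± 0.098). All 6 smooth muscle markers rose, with Des (0.81 ± 0.12) and Cnn1 (0.69 ± 0.096) highest. Acta2 (0.24 ± 0.049) was lowest, followed by Myh11 (0.39 ± 0.098) and Tagln (0.39 ± 0.067). Of 9 colon epithelial markers 1 rose, Krt20 (0.4 ± 0.1), a keratin of surface cells. Endothelial list means were 8.42 to 8.91 in Control and 8.91 to 9.64 in the siRNA-dosed arrays, smooth muscle 11.87 to 12.84 and 12.79 to 13.08, and colon epithelial 11.77 to 12.36 and 11.88 to 12.42. Squamous markers rose in 0 of 10 in scrambled and siTNF, 8 of 10 in siTNF-OMe and 5 of 10 in siTNF-OMe-P over Control, while all 5 members rose in scrambled and siTNF too. The part of any of these cell types in the member differences was not tested.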

How the data were processed

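Distal colon RNA of 36 mice in 5 labelled groups was amplified from 25 ng and hybridized in 3 amplification and 2 hybridization batches, per the labels. The authors used RMA and Partek, per the submitters' processing notes, and deposited log2 signals per probe set; versions, signal over background and any batch removal are not given in the sources used here. No probe set was filtered out: the platform annotation names 1 gene for 21789 of the 28853, several for 1621 and no gene for 5443.

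Group, amplification and hybridization batch were fitted on all arrays with limma 3.58.1 in R 4.3.3 (trended moderation, 28 residual degrees of freedom), two-sided, with Benjamini-Hochberg adjustment for each of 10 comparisons separately over all probe sets (threshold 0.05). The MPO slope was fitted with the same terms on 27 arrays, and correlations used 100000 permutations, or exact ones in Control. The smallest p these permutations can give is 1e-05. Each animal has its own colon measures, so arrays were taken as separate animals. Scripts were tested on simulated data; figures and correlations used matplotlib 3.10.9, pandas 2.3.3, SciPy 1.17.1 and NumPy 2.4.6 under Python 3.11.15.

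Members and gene lists were chosen with earlier results of these data known. Named genes are the members, Ifng, Irf1, per list the 2 highest and 2 lowest called in scrambled over Control, and the 5 genes closest to the members by mean r on each scale; Tnf (the target) and Gbp2b (a partner on a shared probe set) stand outside it. Alternatives were batch terms, each batch alone, 2 groups only, the replicate number as a block, 40% dim probe sets left out (17312 kept), quantile normalization, median centring, moderation, array weights, array SD, a joint adjustment and each array left out.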

Additional observations from a re-analysis of the deposited data

Results flagged for a closer look

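Of 50 tested sets of values (the 9 probe sets and MPO activity in each of the 5 groups, 6 to 9 arrays each), 7 held 1 array farther from its neighbours than Dixon's 95% critical value allows, where chance gives about 1 in 20. Of these 7, 3 were Control replicate 2: Iigp1 at 9.68 log2, the shared probe set of Irgm2 and Igtp at 10.33 and that of Gbp2 and Gbp2b at 10.71, with the next Control array at 8.5, 9.58 and 9.77. That animal's MPO activity was 0.039 U per mg, near the Control median of 0.038. The other 4 were siTNF-OMe replicate 1, with the second highest array of its group in brackets: Gbp3 at 9.94 log2 (9.21), Gbp7 at 10.51 (9.76), Irgm2 and Igtp at 11.83 (11.08), and the probe set of Gbp4, Gbp6, Gbp8, Gbp9, Gbp10 and Gbp11 at 10.78 (9.71). That animal had the highest MPO activity of its group, 1.157 U per mg. The probe sets follow one another across arrays, so these are not separate events, and the cause was not tested.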

How the results depend on the processing

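All 5 members stayed called over Control in each siRNA group under most alternatives. With array weights 3 were called in siTNF, where 7924 of 28853 probe sets were called in either direction. Within hybridization batch 1, siTNF had 0 called, siTNF-OMe 2 and siTNF-OMe-P 2, and within batch 2 scrambled had 3, siTNF-OMe 3 and siTNF-OMe-P 2. Within amplification batch 1, 1, 0, 1 and 0 were called in the order scrambled, siTNF, siTNF-OMe, siTNF-OMe-P, and within batch 3, 1, 2, 2 and 2; groups there held 1 to 3 arrays, and a lone array was assumed to vary like the other groups. Within amplification batch 1 the siTNF-OMe-P fit called 8804 probe sets against 4596 with all arrays; the cause was not tested. Irgm1 in siTNF-OMe-P over Control was -0.22 within amplification batch 1, the 1 of 684 values over Control that changed sign, and leaving out single arrays gave 0 of 567. Over Control, leaving out 1 array gave 4 to 5 called members in siTNF and 5 in the other groups. Among siRNA groups 0 were called under every alternative run; 97 of 1026 uncalled values changed sign, among them those within amplification batch 3 given above, and 39 of 729 with 1 array left out. For the MPO slope, 1 member was called with array SD as a covariate. With 1 array left out, 0 were called in 26 of 27 fits and 2 in the other.

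The median r of the members with MPO, 0.641, was 0.454 on log2 MPO, 0.471 without the farthest animals, 0.834 and 0.224 within hybridization batches 1 and 2, 0.391 within amplification batch 3, and 0.0106 and 0.217 within the siTNF and siTNF-OMe-P groups. Within siTNF, r was below 0 for Irgm1 (-0.384), Gbp7 (-0.453), Irgm2 and Igtp (-0.62), Olfr56 and Ifi47 (-0.0538) and the probe set of Gbp4, Gbp6, Gbp8, Gbp9, Gbp10 and Gbp11 (-0.0874).

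Deviations of arrays with the same replicate number had r of -0.697 to 0.868 (median 0.124, 64 pairs), and those with different numbers a median of -0.00563 (451 pairs). Replicate numbers follow amplification batch in order within every group, and replicate 1 is in amplification batch 1 and hybridization batch 1 in all 5 groups. Only group means were removed from the deviations, so shared batches enter these r values, which cannot exclude a pairing. No label ties the numbers to a litter, and the animals were not taken as paired. With the replicate block in place of the batch terms all 5 members were called in each group over Control. They rose by 1.35 to 2.41 log2 in scrambled, 0.9 to 1.97 in siTNF, 1.14 to 2.18 in siTNF-OMe and 0.97 to 2.1 in siTNF-OMe-P. In that order, this setting called 3251, 3461, 3970 and 4693 of 28853 probe sets in either direction. Among siRNA groups it called 0 members and 0 of all probe sets. The planned mean of all probe sets of a gene was not run, since each member has 1. The number of arrays limits precision: the lower limits of the member intervals against scrambled reach -1.34 log2.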
